A study of Mus musculus with 24 samples.

Results

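The genes of the RAS, ERK and p38 kinase cascades were examined for H3K9ac, the acetylation of lysine 9 on histone H3 that is concentrated at promoters in use. They are 34 genes of the 21887 protein-coding mouse genes in the gene table used, chosen by name as the RAS, RAF, MEK, ERK, p38, RSK and MSK genes with their adaptors. The tissue was embryoid bodies at day 5, the aggregates that mouse embryonic stem cells (strain C57BL/6) form as they begin to differentiate. Null embryoid bodies came from the Gcn5-/- clones 4_C2 and 6_C4, and the floxed ones from the Gcn5 fx/fx clones 4_1 and 6_1, which keep the floxed allele. The Kat2a gene encodes Gcn5, an enzyme that adds acetyl groups to histones, lysine 9 of H3 among their sites. Clones 6_C4 and 6_1 form isolate pair 6, and clones 4_C2 and 4_1 form isolate pair 4. Each clone gave 2 replicate H3K9ac libraries, so there were 4 null and 4 fx/fx libraries, and each genotype rests on 2 clones. The study asked how the distribution of the mark over the genome changes when Gcn5 is lost early in differentiation, and its title places the FGF pathway downstream of Gcn5 through c-Myc.

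FGF and other receptor tyrosine kinases recruit the adaptors FRS2, SHC and GRB2 and the phosphatase SHP2, which bring the exchange factor SOS to RAS. Active RAS binds RAF kinases, RAF phosphorylates MEK, MEK phosphorylates ERK, and ERK acts on RSK kinases and transcription factors. In the early mouse embryo and in embryonic stem cells FGF and ERK signalling is known to move cells out of the pluripotent state. The p38 branch runs in parallel from MAP3K kinases through MKK3, MKK6 and MKK4 to p38, which activates MK2, MK3 and the MSK kinases, mainly after stress.

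The deposited lists hold peak positions and no height, so what could be measured was whether a peak was present and how many base pairs it covered. Acetylation inside a peak and the depth of each library are unknown, and no counting interval could be given. Overlapping peaks of the 8 libraries were merged into regions. A gene was assigned the region within 1000 bp of either end of its span that covered the most base pairs on average. Covered length was compared on a log2 scale after subtracting each library's median over the 10171 regions present in all 8 lists, and these regions were tested together with limma, with Benjamini-Hochberg adjustment over all of them and a threshold of 0.05. Every log2 difference given for a region is on that centred scale unless it is called uncentred. The 4 null libraries held between 12041 and 18932 peaks covering 21.8 to 39.4 Mb, and the 4 fx/fx libraries held between 13260 and 20809 peaks covering 26.7 to 44.3 Mb. Within each genotype the libraries of pair 6 had the longer lists. Centring removed a median difference of -0.14 log2 units, the null regions being the narrower, so a positive centred value can stand beside fewer base pairs in null libraries. The region at Kat2a lies at the end of the gene and does not check its deletion. Before centring its mean length was 3132 ± 127 bp over null libraries and 3630 ± 269 bp over fx/fx ones (SD, n = 4 each). After centring the difference was -0.08 ± 0.09 (log2 ± SE, limma adjusted p = 0.869). Among marker genes of the differentiating cells, 3 to 6 of 7 pluripotency genes had a peak in a null library and 4 to 6 in an fx/fx library. Of 7 primitive streak and mesoderm genes, 1 to 6 had one in a null library against 3 to 7 in an fx/fx library. The lowest of these mesoderm counts in each genotype was that of its shortest list. Of 5 endoderm genes 0 to 4 had a peak in a library of either genotype, and of 4 epiblast genes 3 to 4. Of 5 neuroectoderm genes 1 to 4 had one in a null library and 3 to 4 in an fx/fx library. Few markers of feeder cells had a peak: of 7 feeder fibroblast genes 0 to 2 had a peak in a null library and 1 to 3 in an fx/fx library, with Col3a1, Postn and Prrx1 without a peak in all 8, Thy1 marked in 1 null and 2 fx/fx libraries, and Twist2 in 2 null and 4 fx/fx libraries. The part of such cells in the results was not tested. The cells were measured in bulk, so fewer cells with the mark and less mark per cell cannot be told apart.

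Most of the cascade was marked in every library. Of the 34 genes, 26 had a peak at a gene end in all 8 libraries (76.5%, against a background of 45.3% of all genes), 6 had one in some libraries, and 2 had none. The number of genes with a peak was 31, 28, 31 and 31 in the null libraries (4_C2 replicates 1 and 2, 6_C4 replicates 1 and 2) and 32, 28, 31 and 31 in the fx/fx libraries (4_1 replicates 1 and 2, 6_1 replicates 1 and 2). The counts overlapped, and the lowest ones, 28 each, belonged to the shortest list of each genotype. A peak in all libraries was found for the RAS genes Hras, Nras, Rras and Rras2 and for every adaptor and exchange factor of the list. The same held for the RAF kinase gene Braf and the scaffold Ksr1, for MEK1 and MEK2 (Map2k1, Map2k2), and for ERK1 (Mapk3).

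The 6 genes marked at a gene end in some libraries were Map2k6, Mapk11, Mapk13, Mapkapk3, Rps6ka4 and Araf. Of the p38 kinases, Mapk14, encoding p38 alpha, and Mapk12, encoding p38 gamma, were marked in all 8 libraries. Mapk11, encoding p38 beta, covered 1219, 0, 1862 and 1360 bp in null libraries and 1778, 1307, 1909 and 1753 bp in fx/fx libraries. Mapk13, encoding p38 delta, covered 1433, 1206, 1917 and 1673 bp in null libraries and 1503, 0, 2042 and 1900 bp in fx/fx libraries. Each lacked a peak in 1 library, replicate 2 of the null clone 4_C2 for Mapk11 and replicate 2 of the fx/fx clone 4_1 for Mapk13, and the groups overlapped at both genes. Mapkapk3, which encodes the p38 substrate MK3, covered 1108, 1285, 1674 and 1325 bp in null libraries and 1425, 0, 1591 and 1802 bp in fx/fx libraries, with the same fx/fx library at 0. The X-linked RAF gene Araf covered 1578, 0, 1723 and 1824 bp in null libraries and 1836, 1503, 2033 and 1878 bp in fx/fx libraries, with replicate 2 of clone 4_C2 at 0. The genotypes overlapped at both of these genes as well. Rps6ka4, encoding MSK2, was covered in all 8 libraries in its merged region and within 1000 bp of its annotated start. Near the gene end it had no peak in either of those short lists. These libraries, 4_C2 replicate 2 and 4_1 replicate 2, had the fewest peaks of all 8, at 12041 and 13260. With every list cut to the length of the shortest by peak width, the number of genes with a peak in all 8 libraries was also 26.

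Map2k6, encoding the p38 activator MKK6, was close to unmarked. Its only peak, 1080 bp on chromosome 11 from 110399138 to 110400217, was in replicate 1 of the fx/fx clone 4_1, and the 4 null libraries and the other 3 fx/fx libraries had none. Its partners were marked throughout: Map2k3, encoding MKK3, covered 2798, 3030, 3025 and 3669 bp in null libraries and 3230, 2696, 3097 and 3713 bp in fx/fx libraries, and the groups overlapped. When genes with a region in at least 4 lists were fitted with limma after adding 100 bp to each length, the differences between null and fx/fx were -0.99 ± 0.88 for Araf, -1.05 ± 0.82 for Mapk11, 0.98 ± 0.90 for Mapk13 and 0.91 ± 0.88 for Mapkapk3 (log2 ± SE). The adjusted p was 0.798 for each, so no difference in presence or length was detectable at these genes.

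**Figure D1:**
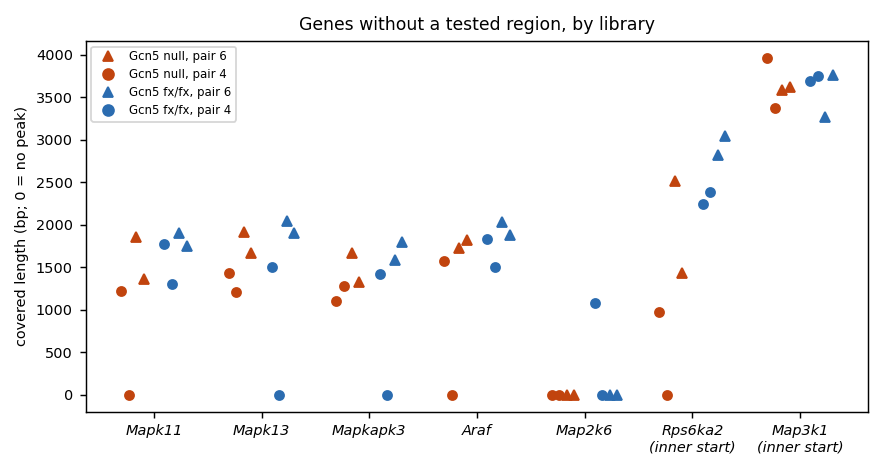
Covered length in bp (vertical axis) in each library for the 7 genes without a tested region, null libraries to the left of fx/fx libraries, triangles for pair 6 and circles for pair 4, with Rps6ka2 and Map3k1 measured at the annotated start inside the gene. Points at 0 are libraries without a peak, which for Araf, Mapk11, Mapk13 and Mapkapk3 are 4_C2 replicate 2 or 4_1 replicate 2.

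Map3k1 and Rps6ka2 had no peak at either end of the gene span, and for both the annotated transcription start lies inside the span. Map3k1 encodes MEKK1, a kinase above MKK4, and its annotated start is 9276 bp inside. The region over that start, chr13:111806730-111810714, covered 3968, 3371, 3584 and 3619 bp in null libraries and 3690, 3752, 3271 and 3758 bp in fx/fx libraries. All 8 libraries held the mark there, the groups overlapped, and the difference was 0.14 ± 0.08 (limma, adjusted p = 0.724). Rps6ka2 encodes RSK3, a kinase activated by ERK, and its annotated start is 81144 bp inside the span. The region there, chr17:7168513-7171654, covered 979, 0, 2511 and 1432 bp in null libraries and 2240, 2387, 2827 and 3047 bp in fx/fx libraries. In base pairs, before centring, both null libraries were below both fx/fx libraries within each isolate pair. Over all 8 the highest null library exceeded 2 fx/fx libraries. Null regions were narrower in general before centring (median difference -0.14 log2 units). The share of all regions with null lower in both pairs before centring was not counted. The value of 0 was in the shortest list, 4_C2 replicate 2. The null libraries averaged 1230 ± 1042 bp and the fx/fx ones 2625 ± 376 bp (SD, n = 4 each), and the difference, -1.61 ± 0.81 after adding 100 bp, did not pass limma's threshold (adjusted p = 0.798). These starts were looked up after the gene ends had been found empty. Araf, whose annotated start lies 50836 bp inside the span, was likewise covered there in all 8 libraries, with 1217, 924, 1329 and 919 bp in null libraries and 1133, 1042, 1363 and 1204 bp in fx/fx libraries (0.01 ± 0.12, limma adjusted p = 0.988).

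Of the 34 genes, 27 had a region in all 8 libraries and were tested for length. Their mean covered length had a median of 2517 bp, against 2489 bp over all genes with a tested region. The regions of Shc1, Rras and Mapk14 were the longest and those of Rps6ka4, Mapk12 and Ksr1 the shortest. Across the 8 libraries the ratio of the highest to the lowest value had a median of 1.42, from 1.18 at Mapkapk2 to 3.23 at Frs2, against a median of 1.59 over all genes. At 19 of the 27 genes each library had a single peak in the region. Another gene touched the region at some of them, so that the mark could not be assigned to one gene there, among them Hras (with Lrrc56), Rras (Scaf1), Shc1 (Cks1b), Frs3 (Usp49, Prickle4, Tomm6 and Gm20517) and Mapk14 (Slc26a8). Around the 24 annotated starts that lay inside a tested region, the mark reached further into the gene than upstream. The median reach into the gene was 1578 bp for null and 1658 bp for fx/fx libraries, and upstream the median reach was 911 bp for null and 999 bp for fx/fx libraries. The reach into the gene was the longer at 21 of 24 (87.5%), against 80.2% of 7443 genes measured the same way.

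**Figure D2:**
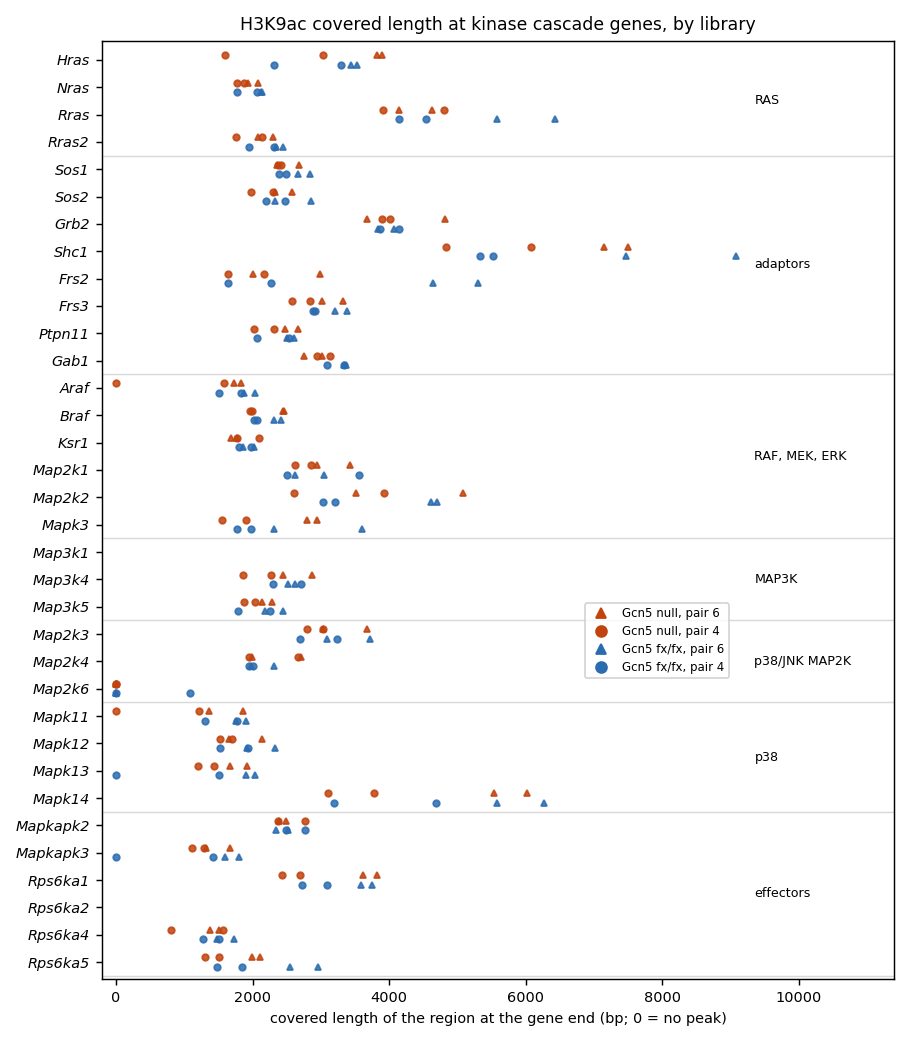
Covered length in bp of the region at the gene end for the 34 genes, ordered by role, with 1 point per library, null libraries drawn above fx/fx libraries, triangles for pair 6 and circles for pair 4. The groups overlap at all 27 tested genes after centring, Shc1 is longest, and Map3k1 and Rps6ka2 have no region at a gene end and so no points.

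No gene of the cascade differed between null and fx/fx embryoid bodies past the adjusted threshold. The count was 0 of 27, beside a background of 0% of the 10171 regions, and the lowest adjusted p among the 27 was 0.716 (limma). At an unadjusted p under 0.05 the test gave 1 gene with a wider region in null, Map2k4, against a background of 3.72%, and 0 genes with a narrower one, against 3.22%. The 4 null libraries lay all above the 4 fx/fx libraries at 0 genes (background 1.51%) and all below at 0 genes (background 0.954%). Most centred differences were small and above 0: 22 of 27 were positive and 5 negative, with a median of 0.06, against a median of 0.01 and 53.2% positive among 10120 genes with a tested region. That direction depended on the centring, since without it 4 of 27 were positive with a median of -0.08, against 14.5% of all genes. By role, 3 of 4 RAS genes, 6 of 8 adaptors and exchange factors, 5 of 5 RAF, KSR, MEK and ERK genes, 2 of 2 MAP3K genes, 2 of 2 p38 activators, 2 of 2 p38 genes and 2 of 4 downstream kinases were above 0 after centring. In the isolate pairs taken alone, the median was 0.06 in pair 6, with 16 of 27 above 0, and 0.07 in pair 4, with 21 above 0. The median of pair 4 was -0.0045 without replicate 2 of clone 4_C2, the shortest list. In both pairs at once 12 of 27 were above 0 (44.4%, against 29.9% of all genes).

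**Figure D3:**
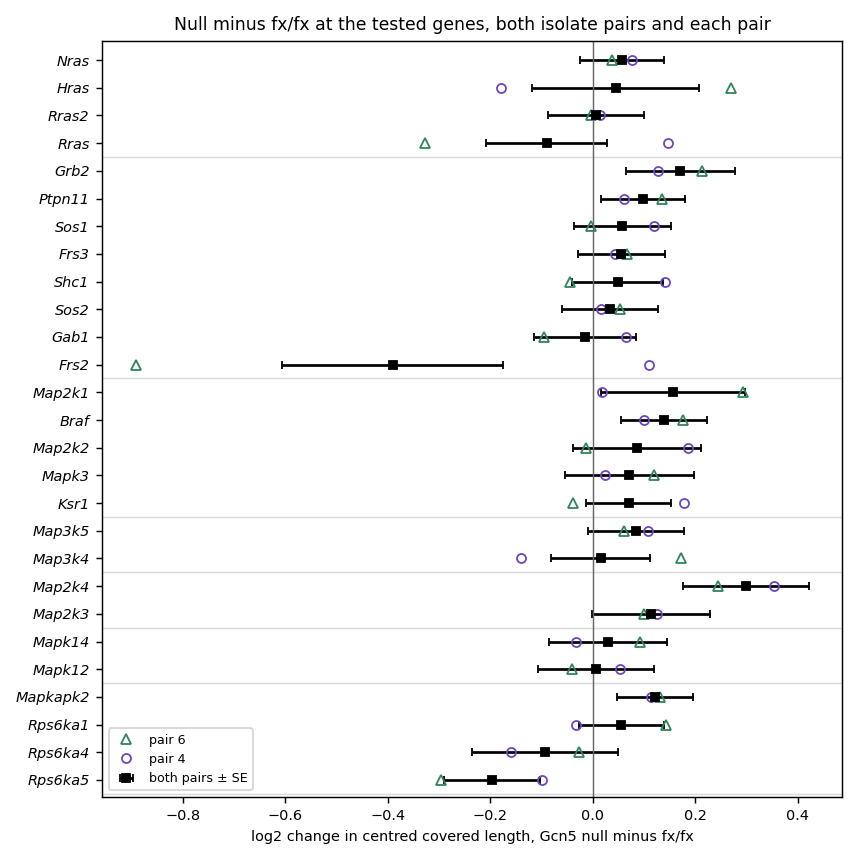
Centred log2 difference in covered length between null and fx/fx libraries for each of the 27 tested genes, with its limma standard error, and the values of pair 6 and pair 4 alone. After centring 22 of 27 lie above 0 (without centring 4 do), Map2k4 is highest at 0.30 and Frs2 lowest at -0.39, with pair 6 alone at -0.89.

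At the top of the cascade, the 4 RAS genes were marked in every library, and none differed in length between the genotypes past the threshold. Hras covered 3029, 1603, 3889 and 3816 bp in null libraries and 3300, 2309, 3530 and 3444 bp in fx/fx libraries, a difference of 0.04 ± 0.16 with an adjusted p of 0.964 (limma). The lowest value of each genotype was the short list of pair 4, and the groups overlapped. Nras covered 1879, 1768, 2076 and 1928 bp in null libraries and 2065, 1770, 2123 and 2131 bp in fx/fx libraries (0.06 ± 0.08, limma adjusted p = 0.894), again with overlap. Rras2, a RAS relative, differed by 0.01 ± 0.09. Rras, a RAS relative known for its part in integrin adhesion, separated by genotype in both pairs but in opposite directions after centring, as did Map3k4. Its region on chromosome 7, 45012252 to 45020254, covered 4144 and 4629 bp in the null clone 6_C4 against 5584 and 6430 bp in the fx/fx clone 6_1, and 4810 and 3909 bp in the null clone 4_C2 against 4138 and 4536 bp in the fx/fx clone 4_1. After centring both null libraries were below both fx/fx libraries in pair 6 (-0.33 ± 0.13) and above them in pair 4 (0.15 ± 0.13). The difference between the pairs in genotype change was -0.47 ± 0.19, with an unadjusted p of 0.0331 and a limma adjusted p of 0.721. Over all regions, 14.9% had both null libraries below in pair 6 and 22.6% had both above in pair 4. For the directions seen at Map3k4 the shares were 21.2% above in pair 6 and 15.5% below in pair 4. The share of regions separated in both pairs at once was not counted.

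Among the adaptors, Frs2 gave the largest difference between null and fx/fx libraries. It encodes the docking protein that carries the signal from FGF receptors to GRB2 and SHP2. Its region, chr10:117145113-117150866, covered 2165, 1638, 2011 and 2982 bp in null libraries and 2273, 1637, 5295 and 4639 bp in fx/fx libraries. Both libraries of the fx/fx clone 6_1 stood above the other 6, and clone 4_1, at 1637 and 2273 bp, lay beside the null values of 1638 to 2982 bp. In pair 6 the difference was -0.89 ± 0.21, with an unadjusted p of 0.00255 and a limma adjusted p of 0.532. In pair 4 it was 0.11 ± 0.21, and over both pairs it was -0.39 ± 0.22 (limma adjusted p = 0.724). The change differed between the pairs by -1.0 ± 0.30, with an unadjusted p of 0.0093 and an adjusted p of 0.595, the lowest for that difference among the 27 genes. At an unadjusted p under 0.05, 2 of the 27 showed such a difference, Frs2 and Rras, against a background of 6.66%, and 0 passed the adjusted threshold, as did 0% of all regions. Leaving out single libraries in turn moved the overall Frs2 value between -0.57 (without 4_1 replicate 2) and -0.14 (without 6_1 replicate 2). The pair 6 value then ranged from -1.19 (without 6_C4 replicate 2) to -0.52 (without 6_1 replicate 2), and it was -0.59 within 2000 bp of the gene end.

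The extra length lay on both sides of the Frs2 start. Counted from the annotated start, with positive values running into the gene, clone 6_1 had peaks from -2343 to 1413 bp and from 1824 to 3361 bp in replicate 1, and from -2392 to -1151 bp and from -1017 to 2379 bp in replicate 2. The null clone 6_C4 had a peak from -746 to 1264 bp in replicate 1, and peaks from -2327 to -1456 bp and from -902 to 1207 bp in replicate 2. The core around the start was therefore covered in both clones, and the part beyond 1264 bp into the gene was covered only in clone 6_1 among the 4 libraries of pair 6. The map of peak positions shows this beside Rps6ka5, Map2k4 and Mapkapk2.

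**Figure D4:**
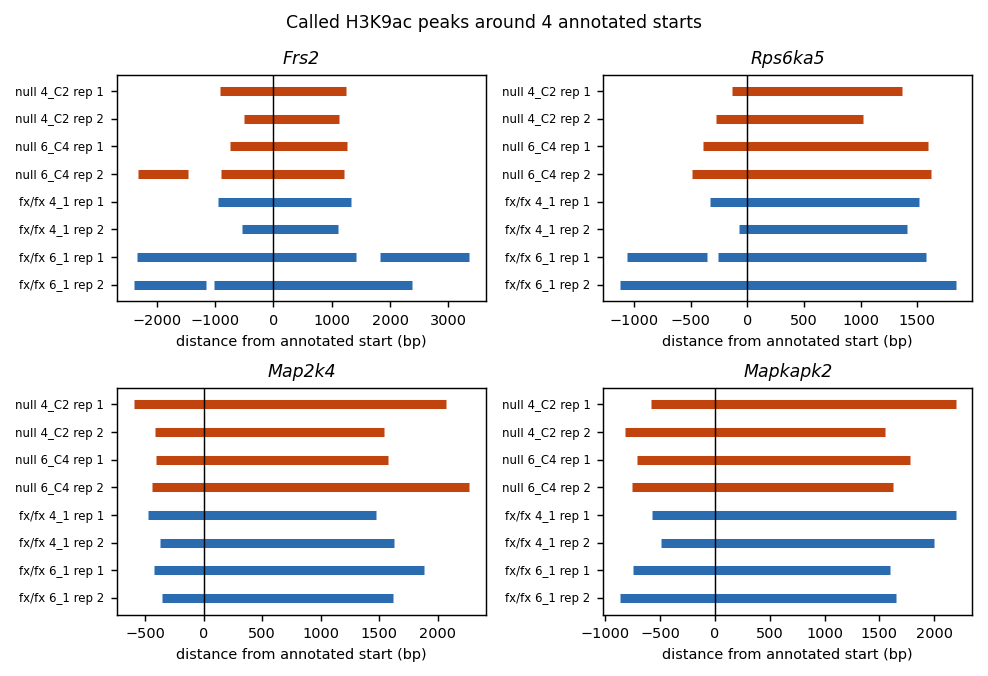
Positions of called peaks at Frs2, Rps6ka5, Map2k4 and Mapkapk2 in bp from the annotated start, with 1 row per library, null libraries above fx/fx libraries and the gene running to the right. At Frs2 and Rps6ka5 the peaks of clone 6_1 begin further upstream than those of pair 4, and at Frs2 they reach 3361 bp into the gene.

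The other adaptors had smaller differences at their gene ends. Grb2, the adaptor that carries SOS to receptors, covered 4011, 3898, 3673 and 4816 bp in null libraries and 4138, 3871, 3844 and 4071 bp in fx/fx libraries at the 5′ end of its span, with overlap between the groups (0.17 ± 0.11, limma adjusted p = 0.745). Leaving out 6_C4 replicate 2 gave 0.08 and leaving out 6_C4 replicate 1 gave 0.25. Its annotated starts lie further inside, and the region there, chr11:115698657-115701397, covered 2712, 2570, 1878 and 2606 bp in null libraries and 2318, 2139, 1895 and 2083 bp in fx/fx libraries (0.34 ± 0.11, limma adjusted p = 0.714). The 3 highest values there were null ones, but 1 null library, 6_C4 replicate 1, was the lowest of all 8. Shc1, another adaptor, had the longest region of the cascade, with 6071, 4826, 7498 and 7150 bp in null libraries and 5331, 5528, 7470 and 9080 bp in fx/fx libraries. These values overlapped between the genotypes, and the difference was 0.05 ± 0.09. The exchange factors Sos1 and Sos2 differed by 0.06 ± 0.09 and 0.03 ± 0.09, the FRS2 relative Frs3 by 0.06 ± 0.08, the SHP2 gene Ptpn11 by 0.10 ± 0.08 and the docking gene Gab1 by -0.01 ± 0.10, with limma adjusted p-values of 0.804 or above. The Frs3 region at the gene end holds no annotated start of Frs3. The annotated start lies 7600 bp inside the span, in a region covered in all 8 libraries (0.10 ± 0.08, limma adjusted p = 0.802).

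In the RAF, MEK and ERK tier all 5 tested genes were above 0 after centring, and none approached the threshold. Braf, the RAF kinase with the highest basal activity, covered 1989, 1969, 2445 and 2465 bp in null libraries and 2059, 2022, 2320 and 2421 bp in fx/fx libraries. The null values were the higher in pair 6 and the lower in pair 4 before centring, and after centring the difference was 0.14 ± 0.08 (limma adjusted p = 0.741). Map2k1, encoding MEK1, covered 2851, 2627, 3434 and 2946 bp in null libraries and 2506, 3563, 3047 and 2628 bp in fx/fx libraries, and the groups overlapped (0.16 ± 0.14, limma adjusted p = 0.821). Its difference ranged from 0.06 without 4_1 replicate 1 to 0.30 without 4_1 replicate 2, and was 0.03 with lists of equal length. Map2k2, encoding MEK2, differed by 0.09 ± 0.13, and Mapk3, encoding ERK1, by 0.07 ± 0.13. Ksr1, which encodes a scaffold that holds RAF, MEK and ERK together, covered 2100, 1777, 1688 and 1776 bp in null libraries and 1972, 1808, 1858 and 2025 bp in fx/fx libraries. The null clone 6_C4 had the lowest values, the groups overlapped, and the difference was 0.07 ± 0.08 (limma adjusted p = 0.868).

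On the p38 side, Map2k4 was the gene with the largest positive difference at a gene end. It encodes MKK4, which phosphorylates JNK and p38. The region at its start, chr11:65786088-65788957, covered 2666, 1955, 1985 and 2714 bp in null libraries and 1949, 2002, 2312 and 1976 bp in fx/fx libraries. The 2 highest values were null, 1 in each pair, while the other 2 null libraries lay within the fx/fx range. The difference was 0.30 ± 0.12, with 0.24 in pair 6 and 0.35 in pair 4, and an unadjusted p of 0.0354 became 0.716 after limma's adjustment. The kinases above it, Map3k4 (MEKK4) and Map3k5 (ASK1), differed by 0.02 ± 0.10 and 0.08 ± 0.09. At Map3k4 both null libraries were above both fx/fx libraries in pair 6 (0.17) and below them in pair 4 (-0.14), after centring. Mapk14 covered 3772, 3101, 5535 and 6026 bp in null libraries and 4685, 3194, 6263 and 5575 bp in fx/fx libraries (0.03 ± 0.11, limma adjusted p = 0.965). Both genotypes had the longer values in pair 6, and the genotypes overlapped. Mapk12 covered 1704, 1527, 1659 and 2139 bp in null libraries and 1932, 1528, 1914 and 2332 bp in fx/fx libraries, also with overlap (0.01 ± 0.11).

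Among the downstream kinases, Rps6ka5, encoding MSK1, which phosphorylates histone H3 and CREB, had a region on chromosome 12, 100723282 to 100726243. It covered 1504, 1297, 1990 and 2112 bp in null libraries and 1847, 1480, 2544 and 2962 bp in fx/fx libraries. As at Frs2, clone 6_1 held the 2 highest values, and the null libraries overlapped with clone 4_1. The difference was -0.20 ± 0.09 over both pairs, with an unadjusted p of 0.0621 and a limma adjusted p of 0.720. It was -0.30 ± 0.13 in pair 6 and -0.10 ± 0.13 in pair 4. Relative to the annotated start, the peaks of clone 6_1 began at -1063 and -1123 bp, and those of the other 6 libraries between -489 and -71 bp. Rps6ka4, encoding the related MSK2, had the shortest region tested, with 1573, 800, 1509 and 1372 bp in null libraries and 1505, 1277, 1484 and 1721 bp in fx/fx libraries. The lowest value was that of the shortest list, 4_C2 replicate 2, the groups overlapped, and the difference was -0.09 ± 0.14 (limma adjusted p = 0.902). Rps6ka1, encoding RSK1, differed by 0.06 ± 0.08. Mapkapk2, encoding the p38 substrate MK2, had the smallest ratio of highest to lowest covered length in base pairs among the 27. It covered 2775, 2371, 2493 and 2385 bp in null libraries and 2769, 2484, 2346 and 2516 bp in fx/fx libraries. Over all 8 libraries the genotypes overlapped, and the centred difference was 0.12 ± 0.07 (limma adjusted p = 0.739). After centring, both null libraries were above both fx/fx libraries in pair 6 and in pair 4. Taken alone, this held at 21.2% of all regions in pair 6 and at 22.6% in pair 4. The share for both pairs at once was not counted.

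Within pair 6, Frs2, Rras and Rps6ka5 were the genes with a narrower null region at an unadjusted p under 0.05. They were 3 of 27, against a background of 3.06% of all regions, and 0 genes passed limma's adjusted threshold in pair 6 (background 0%). These 3 were also the genes at which both null libraries of pair 6 lay below both fx/fx libraries (background 14.9%), and at 7 genes both lay above (background 21.2%). In pair 4, both null libraries lay above both fx/fx libraries at 7 genes (background 22.6%) and below at 1 gene, Map3k4 (background 15.5%). In pair 4 limma called 0 genes past the adjusted threshold (background 0.0787%) and 0 at an unadjusted p under 0.05 (background 9.62%). The libraries of clone 6_1, one of which had the longest list of the 8 and both of which covered more base pairs than any other, enter all pair 6 values. With every list cut to the length of the shortest by peak width, the pair 6 difference of Frs2 was -0.67 and the overall difference of Rps6ka5 was -0.09.

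The isolate pairs differed from each other at more regions than the genotypes did. Between pair 6 and pair 4, limma called 3 of the 27 genes past the adjusted threshold, beside a background of 6.83% of all regions. Rps6ka5 was wider in pair 6, by 0.38 ± 0.09 (adjusted p = 0.0426, background 4.32%). Mapkapk2 was narrower in pair 6, by log2 -0.36 ± 0.07 (adjusted p = 0.0228), as was Ksr1, by log2 -0.32 ± 0.08 (adjusted p = 0.0479, background 2.52%). The Mapkapk2 and Ksr1 calls were made only after centring. In base pairs the values of Mapkapk2 in pair 6, 2346 to 2516, lay within those of pair 4, 2371 to 2775, apart from 1 library, and without centring its difference was -0.09 (limma adjusted p = 0.423). Without centring that of Ksr1 was -0.06 (limma adjusted p = 0.629), and that of Rps6ka5 was 0.64 (limma adjusted p = 0.0064). All 4 libraries of pair 6 lay above all 4 of pair 4 at 4 genes (background 7.13%) and below them at 3 genes (background 9.69%). The calls were not stable. Leaving out any 1 of the 8 libraries left 0 or 1 of the 3, and the adjusted p then ranged from 0.0653 to 0.111 for Rps6ka5, from 0.0445 to 0.0710 for Mapkapk2 and from 0.0759 to 0.140 for Ksr1. With lists of equal length, Rps6ka5 differed by 0.26 and was no longer called (limma adjusted p = 0.252).

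The promoters of the genes on which these results turned are shown so that the marked sequence can be read beside its values. They are RefSeq sequences on GRCm38.p6, from 250 bases before to 50 after the annotated start, printed 5′ to 3′ on the gene's strand. CpG dinucleotides are in capitals, since most promoters with H3K9ac are rich in them. The first is that of Map2k4, with the largest positive difference at a gene end (chr11:65788310-65788609, minus strand, 16 CpG). Next come Frs2 (chr10:117148425-117148724, minus strand, 24 CpG) and Rps6ka5 (chr12:100725071-100725370, minus strand, 29 CpG), which were longest in clone 6_1. Mapkapk2 differed between the isolate pairs after centring (chr1:131097794-131098093, minus strand, 18 CpG), and Map2k6 was unmarked in 7 of 8 libraries (chr11:110398852-110399151, plus strand, 14 CpG).
Map2k4: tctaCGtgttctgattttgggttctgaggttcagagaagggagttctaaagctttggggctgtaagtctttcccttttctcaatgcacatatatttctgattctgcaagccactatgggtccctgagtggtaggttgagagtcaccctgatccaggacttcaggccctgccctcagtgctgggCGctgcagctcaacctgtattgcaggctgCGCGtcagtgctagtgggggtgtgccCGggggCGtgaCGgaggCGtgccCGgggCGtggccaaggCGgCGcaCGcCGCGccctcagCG
Frs2: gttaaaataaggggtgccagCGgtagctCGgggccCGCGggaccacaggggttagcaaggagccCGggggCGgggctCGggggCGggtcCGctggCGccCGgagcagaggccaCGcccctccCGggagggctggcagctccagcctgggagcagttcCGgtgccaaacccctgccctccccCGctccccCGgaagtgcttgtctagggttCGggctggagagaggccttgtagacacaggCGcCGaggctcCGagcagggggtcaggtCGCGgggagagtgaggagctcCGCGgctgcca
Rps6ka5: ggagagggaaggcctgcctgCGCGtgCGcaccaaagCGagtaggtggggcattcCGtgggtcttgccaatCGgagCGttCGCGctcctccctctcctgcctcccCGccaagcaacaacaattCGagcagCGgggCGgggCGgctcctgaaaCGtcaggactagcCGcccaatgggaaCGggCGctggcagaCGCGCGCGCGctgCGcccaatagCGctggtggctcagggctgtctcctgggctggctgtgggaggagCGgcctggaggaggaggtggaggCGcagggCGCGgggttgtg
Mapkapk2: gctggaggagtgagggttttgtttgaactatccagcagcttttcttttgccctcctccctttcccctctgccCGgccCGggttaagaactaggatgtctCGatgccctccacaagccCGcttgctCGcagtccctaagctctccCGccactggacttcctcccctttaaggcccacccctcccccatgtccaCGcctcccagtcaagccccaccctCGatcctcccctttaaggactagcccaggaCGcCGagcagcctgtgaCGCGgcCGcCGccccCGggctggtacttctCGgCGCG
Map2k6: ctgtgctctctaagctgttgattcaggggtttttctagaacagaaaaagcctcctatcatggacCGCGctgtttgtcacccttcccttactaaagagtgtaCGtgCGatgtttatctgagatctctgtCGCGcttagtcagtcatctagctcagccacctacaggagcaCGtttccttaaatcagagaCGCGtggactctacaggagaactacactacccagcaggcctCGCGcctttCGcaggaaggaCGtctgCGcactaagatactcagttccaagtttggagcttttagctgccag

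Promoter sequences, taken at the most upstream annotated start of each gene, were found for 33 of the 34 genes, and Mapk3 is the one not matched. Their CpG count had a median of 28, from 3 at Grb2 to 55 at Map3k1, against medians of 7 over 27025 promoters and 23 over the promoters of 8214 genes with a tested region. The nearly unmarked Map2k6, with 14 CpG and 50% GC, lay below the median of the cascade, as did the marked Map2k4. Over the 26 genes with both values, CpG count and mean covered length had Pearson's r of -0.31 and Spearman's rho of -0.10, and CpG count and the difference between null and fx/fx had r of -0.01 and rho of 0.03. At Grb2, which has the lowest CpG count, and at Frs3 the promoter lies outside the region whose length was used. These are descriptions across genes that share the same 8 libraries, and genes are not independent replicates.

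Short motifs were searched on both strands, and matches of different motifs may overlap. The Sp1-type motif GGGCGG was in 26 of 33 promoters (78.8%), against 35.9% of all promoters and 69.0% of those with a tested region. CCAAT was in 11 (33.3%, against 38% of all and 39.0% of those with a tested region). The E-box CACGTG, which c-Myc with Max can bind, was in 2, those of Mapk12 and Nras (6.06%, against 7.24% and 10.8%). A further E-box lies at position -167 of the second annotated start of Mapkapk3, which is outside this count. The ETS-type motif CCGGAAG was in 3, those of Frs2, Shc1 and Ptpn11 (9.09%, against 9.14% and 20.9%). The CREB-type motif TGACGTCA was in 2, those of Braf and Ptpn11 (6.06%, against 1.85% and 3.68%), and TATAAA was in 1, that of Grb2 (3.03%, against 14.2% and 6.03%). In the printed Frs2 promoter the ETS-type match lies at position -62 from the start, within the core covered in all 8 libraries. A match is a description of letters, and binding was not measured.

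The wider pathway was described with lists of related genes chosen by name. In each, limma called 0 genes past the adjusted threshold, as over all regions. At an unadjusted p under 0.05, Rgl2, Mef2d and Rps6kb1 were wider in null libraries (background 3.72% of all regions) and Taok2 narrower (background 3.22%). Rgl2 was 1 of 14 tested regulators of RAS and Mef2d 1 of 18 tested substrates and target factors. Rps6kb1 was 1 of 17 tested in the PI3K, AKT and MTOR branch and Taok2 1 of 20 in the JNK and ERK5 cascade. The other lists held no such gene. Of 18 regulators of RAS, 14 were tested, and 5 were above and 9 below 0 after centring (median -0.01). Of 19 ERK scaffolds and modulators, 13 were tested, with 6 above and 7 below 0 (median -0.05). The JNK and ERK5 cascade had 20 of 27 genes tested, with 8 above and 12 below 0 (median -0.02), and the kinase gene Taok2 gave the largest difference there, at 3630 ± 1637 bp over null libraries and 4761 ± 1380 bp over fx/fx ones (-0.33 ± 0.11). Of 22 substrates and target factors, 18 were tested, with 11 above and 7 below 0 (median 0.06). In that list Mef2d, encoding a transcription factor that p38 and ERK5 phosphorylate, averaged 5292 ± 745 bp over null libraries and 4630 ± 1153 bp over fx/fx ones (SD, n = 4 each). Its difference was 0.35 ± 0.10, with an unadjusted p of 0.0046 and a limma adjusted p of 0.714. Of 14 MAPK phosphatases, 10 were tested, with 5 on each side of 0.

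The PI3K, AKT and MTOR branch, which RAS can also feed, had 17 of 19 genes tested, with 7 above and 10 below 0 (median -0.02). Its Rps6kb1, encoding the ribosomal protein S6 kinase p70S6K, covered 4406, 4212, 4904 and 4460 bp in null libraries and 3635, 3275, 3956 and 3229 bp in fx/fx libraries. Every null library was above every fx/fx library, as at 1.51% of all regions and at none of the 27 tested genes of the cascade. The difference was 0.49 ± 0.10, with 0.51 in pair 6 and 0.47 in pair 4 and an unadjusted p of 0.00068, and it did not pass limma's adjusted threshold (adjusted p = 0.625). Of the study's named regulator, Myc, the region covered 1383, 0, 4338 and 3690 bp in null libraries and 3577, 2145, 4848 and 4677 bp in fx/fx libraries. In base pairs, before centring, both null values were below both fx/fx values within each pair, and over all 8 libraries the groups overlapped. Null regions were narrower in general before centring (median difference -0.14 log2 units), and that is not taken out of this order. The share of all regions with the same order was not counted. With 1 library at 0 the Myc region was not among those tested, and no centred value is given.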

How the data were processed

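H3K9ac was mapped by chromatin immunoprecipitation and sequencing, as single reads per the labels' protocols, in 8 libraries. The series holds 24 samples, and the 8 of total H3 and 8 of input DNA were not used here. The authors deposited 1 peak list per library, with positions only and no counts, scores or p-values. Per the submitters' processing notes, the tools were Bowtie 1.1.2 and MACS 1.4.2 and the build was mm10. For the calling threshold, control and filters, the sources used here give nothing. Depth is unknown, and a deeper library can give more and wider peaks.

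The 34 genes and the related lists were chosen with earlier results of these data known, and are given no test of their own. Gene spans, strands, starts and promoter sequences came from RefSeq tables of GRCm38.p6, the assembly with the primary sequence of mm10, and positions are counted from 1. Any overlap of 1 bp or more joined peaks, which gave 26034 regions, and the 10171 covered in all 8 lists were fitted together (limma 3.58.1 in R 4.3.3, Python 3.11.15 and pandas 2.3.3) on centred log2 covered length with isolate pair as covariate. A model of the 4 clones gave the values per pair and their difference. The replicates of a clone are not stated to come from separate cultures, so p-values measure the spread between these libraries, which may be technical. No 2 lists shared more than 1 identical peak. The fit was also run on simulated lengths with known changes and noise drawn separately for each library. That run cannot show how the fit behaves where libraries of a clone vary together or depth alters lengths, and nothing is concluded from it here.

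Values in every library are given for the 4 genes with the highest and the 4 with the lowest difference, those without a peak in some library, those past the adjusted threshold in any test, and the 3 longest and 3 shortest. For each related list up to 3 genes with the largest difference qualified, and Kat2a and Myc were added. Hras, Nras, Map2k3 and the regions at annotated starts inside genes were added after their values were seen.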

Additional observations from a re-analysis of the deposited data

Results flagged for a closer look

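Covered length in base pairs, before centring, was compared among the 4 libraries of each genotype. At 4 of 64 such groups (6.25%), the highest or lowest value stood apart from the other 3 by Dixon's criterion. For normal values with one spread chance flags about 1 in 20 groups, and groups with lengths of 0 are not of that kind. Araf covered 0 bp in replicate 2 of the null clone 4_C2, the shortest list. Map2k6 covered 1080 bp in replicate 1 of the fx/fx clone 4_1, with no peak in the other 3 fx/fx libraries. Map2k4 covered 2312 bp in replicate 1 of the fx/fx clone 6_1, above the other fx/fx libraries. Gab1 covered 3089 bp in replicate 2 of the fx/fx clone 4_1, below the other fx/fx libraries at 3339 to 3367 bp. After centring, the flagged values of Map2k4 and Gab1 lay within the range of the other fx/fx libraries.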

How the results depend on the processing

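Between null and fx/fx libraries 0 of the cascade genes passed limma's adjusted threshold under every alternative run. The same held within a pair and for the difference between pairs, for which the replicate block was not run. Without centring the median was -0.0797 with 4 of 27 genes above 0, -0.0652 in pair 6 and -0.0800 in pair 4, since the null regions were narrower overall. The number of genes called between pair 6 and pair 4, 3 in the main analysis, was 8 without centring (Rps6ka5 stayed, Mapkapk2 and Ksr1 did not), 1 with regions in at least 4 lists and 100 bp added, 5 at annotated starts only (which adds the inner starts of Grb2 and Map3k1) and 0 within 2000 bp of the gene end. Apart from the construction of each alternative, the cause was not tested. Leaving out 1 library gave 0 to 1 such calls, a median of 0.04 to 0.06, 18 to 22 genes above 0, and a pair 4 median of -0.0045 to 0.11. The difference of Rras was 0.0405 within 2000 bp of the gene end. Without single libraries it ranged from -0.182 to 0.0287, the last without replicate 1 of the null clone 4_C2, and that of Rps6ka4 from -0.223 to 0.0630, the last without replicate 2 of that clone. With the replicate number as a block, the median was 0.06, 22 genes were above 0 and 0 were called. Same-numbered null and fx/fx libraries deviated together by r = 0.0624 in pair 6 and 0.109 in pair 4, and the 2 pairs share no more than a number. Unknown depth limits all lengths. Missing peaks at gene ends, apart from those of Map2k6, Map3k1 and Rps6ka2, fell in the shortest list of each genotype.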
